A study of Mus musculus with 23 samples.

Results

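The Serpina1 and Serpina3 genes studied here are 10 protease inhibitor genes of mouse chromosome 12: Serpina1a, Serpina1b, Serpina1c, Serpina1d, Serpina1e, Serpina3c, Serpina3g, Serpina3k, Serpina3m and Serpina3n. They were chosen by their symbol in the count table, which held 27179 genes. RNA of liver tissue free of visible tumors was sequenced from 15 female mice, each a separate mouse, whose ages the labels do not give. All 15 mice carried Alb-Cre, in which the promoter of the hepatocyte gene albumin drives Cre recombinase, together with Trp53 flx/flx, so the controls had also lost Trp53 in hepatocytes. The 6 Ctrl mice had wild-type Braf and Icmt flx/+. The 6 ABpIF/+ mice carried the activated Braf allele (Braf CA/+) with Icmt flx/+, and the 3 ABpIF/F mice carried it with Icmt flx/flx, in which Cre can delete both copies of the isoprenylcysteine methyltransferase gene in hepatocytes. Icmt RNA was lower but still present in these whole livers. The genotype field of the Braf mice reads BRAF +/+, whereas the series design gives Braf CA/+, and the design was followed. Of the Ctrl mice, 5 had names starting with malpa, and BG3 was the only Ctrl mouse whose name started with BG. The names of the 9 Braf mice all started with BG. These letters are called the strain label here, and whether they mark a difference in strain was not tested.

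Serpins are secreted or intracellular proteins that trap a protease. The protease cuts an exposed stretch of the serpin, the reactive centre loop, and is then held in a covalent complex. The residue just before the cut, called P1, largely sets which protease is caught. Serpina1 encodes alpha-1-antitrypsin, the main inhibitor of neutrophil elastase in plasma, and Serpina3 encodes relatives of alpha-1-antichymotrypsin. Humans have a single gene of each kind, whereas the mouse has several copies, most of them made by hepatocytes and many of them induced in the acute phase response.

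Total counts ran from 24742910 to 32262649 per mouse, and the 10 genes took 1.42 to 2.21% of them in Ctrl, 2.86 to 4.12% in ABpIF/+ and 2.61 to 3.10% in ABpIF/F mice. Icmt stood at 30.8 ± 2.72 CPM (counts relative to the library size as scaled by the TMM method) in Ctrl, 32.7 ± 3.49 in ABpIF/+ and 15.8 ± 0.711 in ABpIF/F mice (SD, n = 6, 6 and 3). A score of clock genes, the mean log2 CPM of 5 genes high at dawn minus that of 9 genes high at dusk, lay between −4.90 and −3.92 in Ctrl mice other than malpa387, between −4.48 and −3.53 in ABpIF/+ mice, at 0.20 in malpa387 and between −0.97 and 1.49 in ABpIF/F mice. The summed level of 12 hepatocyte markers was 123009 to 162144 CPM in Ctrl, 217191 to 293465 in ABpIF/+ and 167301 to 260261 in ABpIF/F mice, a sum made mostly of Alb and Trf. Of these 12 markers, 2 were called higher and 2 lower in ABpIF/+ (median log2 fold change −0.13), and 2 higher and 3 lower in ABpIF/F mice (median −0.27), and their part in the serpin values was not tested. By the rule given below, 10.0 and 6.93% of all genes were called in these comparisons with Ctrl. In whole liver, fewer cells of a type and less RNA per cell cannot be told apart.

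The 10 genes lie within 686.2 kb of chromosome 12 (GRCm38), with the Serpina1 genes over 230.8 kb and the Serpina3 members over 267.9 kb. The reactive centre loops are shown first because the loop sets which protease is trapped. Each line holds 20 codons of coding sequence, read from GENCODE M21 transcripts, from the glycine of the hinge onwards, and capitals mark the codon found 12 codons after the hinge glutamate, which is taken as P1.
Serpina1a: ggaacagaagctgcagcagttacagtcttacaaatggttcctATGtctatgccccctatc
Serpina1b: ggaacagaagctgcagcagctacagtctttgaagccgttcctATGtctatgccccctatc
Serpina1c: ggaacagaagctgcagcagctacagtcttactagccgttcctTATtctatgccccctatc
Serpina1d: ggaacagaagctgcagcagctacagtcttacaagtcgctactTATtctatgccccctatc
Serpina1e: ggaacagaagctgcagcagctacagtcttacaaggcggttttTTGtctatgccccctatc
Serpina3k: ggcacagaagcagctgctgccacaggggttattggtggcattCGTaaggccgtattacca
Serpina3m: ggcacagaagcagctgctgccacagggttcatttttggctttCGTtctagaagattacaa
Serpina3n: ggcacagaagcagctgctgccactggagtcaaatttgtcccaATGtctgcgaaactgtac
Serpina3g: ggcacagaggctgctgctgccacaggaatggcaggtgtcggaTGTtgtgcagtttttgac
The P1 codon is methionine in Serpina1a and Serpina1b, as in the human protein, tyrosine in Serpina1c and Serpina1d, and leucine in Serpina1e. In the Serpina3 genes it is arginine in Serpina3k and Serpina3m, methionine in Serpina3n and cysteine in Serpina3g. The loop of Serpina3c, with leucine at P1, is not shown because the gene was close to absent. The Serpina1 loops differ from each other by 4 to 8 of their 60 bases.

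Outside the loop the copies are close. Coding sequences were 91.44 to 96.69% identical over the 10 pairs of Serpina1 genes and 83.09 to 91.55% identical over the 6 pairs of Serpina3 genes that have a full-length frame, which leaves out Serpina3g. Identity was counted over the longer frame of a pair. This was 1308 bases for Serpina1 pairs with Serpina1a and 1239 for the others, which lowers the former (91.44 to 93.27%). Serpina1 pairs without Serpina1a were 96.29 to 96.69% identical. A read of a copy can therefore match another copy. Of all stretches of 150 bases, 50.5% in Serpina1c, 40.7% in Serpina1a, 23.3% in Serpina1d, 16.4% in Serpina1b and 7.57% in Serpina1e also occurred in another Serpina1 gene or the related Gm8893, against at most 0.331% in a Serpina3 member. The annotated span of Serpina1b also covers Serpina1d, and that of Serpina3m covers Serpina3k. Values of single Serpina1 copies are therefore uncertain, least so for Serpina1e, and each family was also summed.

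The first comparison asked what the activated Braf allele changes when 1 Icmt copy is left. Serpina1a, Serpina1b, Serpina1e, Serpina3m and Serpina3n rose in ABpIF/+ compared with Ctrl mice, by 2.43-fold for Serpina3m up to 7.44-fold for Serpina1e. A gene was called changed at an adjusted p under 0.01 (edgeR quasi-likelihood test, Benjamini-Hochberg over all genes) and a fold change of at least 2. By this rule 5 of 10 members were called higher and 0 lower, where 10.0% of all genes were called, 4.69% higher and 5.35% lower. All genes include many with few or no reads. In a fit on the 14596 genes passing the expression filter filterByExpr, 19.2% were called, with 5 members higher and 1 lower. At an unadjusted p under 0.05, 8 members were higher and 2 lower, a threshold whose share over all genes was not counted. DESeq2 called 6 higher and 1 lower, where it called 11.3% of all genes. With a 4-fold change required in place of 2-fold, 2 members, Serpina1e and Serpina3n, were called, where 4.03% of all genes were. The median log2 fold change was 1.39 over the members and 0.02 over the 12316 genes averaging 1 CPM or more.

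The comparison of ABpIF/F with the same Ctrl mice asked the same for livers with both Icmt copies floxed. Serpina1b, Serpina3m and Serpina3n rose, so that 3 of 10 members were called higher and 0 lower, against 6.93% of all genes called, 4.55% higher and 2.38% lower. In the fit on genes passing filterByExpr 13.1% were called, with 4 members higher and 0 lower. At an unadjusted p under 0.05, 5 members were higher and 1 lower, again without a counted share over all genes. DESeq2 called 4 higher and 0 lower, where it called 8.23% of all genes. With a 4-fold change required, 0 members were called and 3.15% of all genes. The median log2 fold change was 0.63 over the members and −0.00 over genes averaging 1 CPM or more. In a fit with the clock score as a covariate 0 members were called in this comparison and 2.59% of all genes, while the same 5 members were called in ABpIF/+ mice. The log2 fold changes in that fit were 0.98 for Serpina1b (adjusted p = 0.0553), 1.24 for Serpina3m (adjusted p = 0.0247) and 2.10 for Serpina3n (adjusted p = 0.0229). That of Serpina3k turned from −0.82 to 0.32. Apart from malpa387, only ABpIF/F mice had a high clock score, so the score and this group cannot be told apart in this fit. The role of the clock genes in these values was not tested beyond this fit. Since both comparisons use the same Ctrl mice, their values are given side by side and were not correlated.

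**Figure D1:**
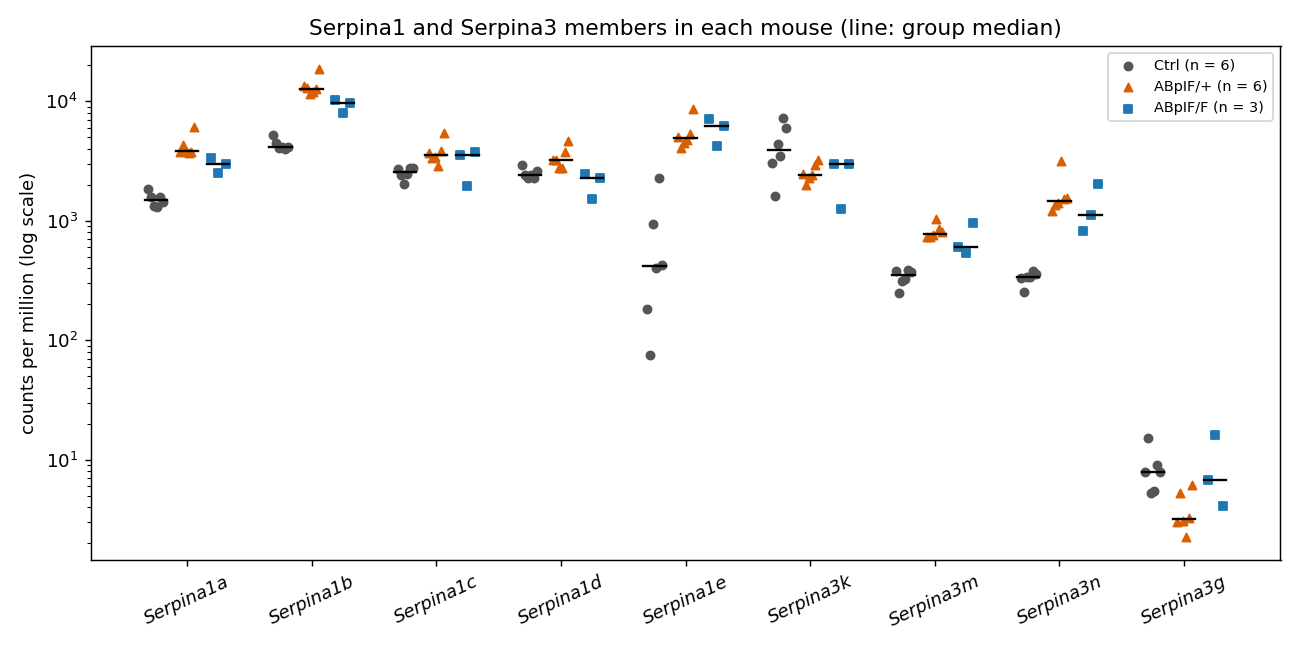
Each point is a mouse, with CPM on a log scale on the vertical axis and the members along the horizontal axis, coloured by group, and the line is the group median. For Serpina1a, Serpina1b, Serpina1e, Serpina3m and Serpina3n all 9 Braf mice sit above all 6 Ctrl mice. How many of all genes separate in this way was not counted, so this does not set the members apart. Serpina3c, at most 2.90 CPM, is left out.

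Serpina1a and Serpina1b carry the methionine loop shown above. In Ctrl mice Serpina1a ran from 1295 to 1827 CPM with a median of 1500, and in ABpIF/+ mice from 3698 to 6032 with a median of 3793. The 3 ABpIF/F mice had 3321, 2507 and 2982 CPM (BG183, BG38 and BG90). All Braf mice were above the Ctrl mice, the lowest by 1.37-fold over the highest. The log2 fold change was 1.49 (SE 0.16, adjusted p = 1.88e-07) in ABpIF/+ and 0.97 (SE 0.18, adjusted p = 0.000558) in ABpIF/F mice, the latter just short of the required fold.

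Serpina1b had the highest mean CPM of the 10 genes in each group, although Serpina3k was above it in some Ctrl mice. It ran from 3973 to 5187 CPM in Ctrl mice (median 4129) and from 11368 to 18435 CPM in ABpIF/+ mice (median 12668). The ABpIF/F mice had 10160, 7946 and 9599 CPM in the same order, so that these groups did not overlap with Ctrl either. In log2 units the rise was 1.63 (SE 0.16, adjusted p = 4.97e-08) in ABpIF/+ and 1.09 (SE 0.18, adjusted p = 0.000140) in ABpIF/F mice. Among all genes of the table its mean level ranked 19 in Ctrl, 7 in ABpIF/+ and 9 in ABpIF/F mice.

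Serpina1c and Serpina1d, the copies with a tyrosine at P1, changed less. Serpina1c ran from 2018 to 2761 CPM in Ctrl (median 2563) and from 2866 to 5442 CPM in ABpIF/+ mice (median 3530), and the ABpIF/F mice had 3535, 1941 and 3733 CPM. Its log2 fold change was 0.58 (SE 0.18, adjusted p = 0.0177) and 0.29 (SE 0.22, adjusted p = 0.473). Neither passed the test, although the ABpIF/+ mice did not overlap with the Ctrl mice. Serpina1d ran from 2281 to 2922 CPM in Ctrl (median 2408) and from 2734 to 4665 CPM in ABpIF/+ mice (median 3191), and the ABpIF/F mice had 2455, 1528 and 2269 CPM. Its log2 fold change was 0.45 (SE 0.16, adjusted p = 0.0438) in ABpIF/+ and −0.25 (SE 0.20, adjusted p = 0.505) in ABpIF/F mice.

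Serpina1e, with leucine at P1, differed most between Ctrl mice. The Ctrl mice had 184 (BG3), 74.5 (malpa387), 935 (malpa454), 402 (malpa458), 2288 (malpa459) and 429 CPM (malpa462). The ABpIF/+ mice ran from 4016 to 8591 CPM with a median of 4881, and the ABpIF/F mice had 7072, 4186 and 6227 CPM. Every Braf mouse was above every Ctrl mouse, but the distance from the highest Ctrl mouse to the lowest Braf mouse, 1.76-fold, was small beside the spread among Ctrl mice. The coefficient of variation was 115% in Ctrl mice, higher than for 99.8% of the 1221 genes reaching 100 CPM, whose median was 16.2%. It was 30.9% in ABpIF/+ and 25.5% in ABpIF/F mice.

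The log2 fold change of Serpina1e was 2.90 (SE 0.67, adjusted p = 0.00570) in ABpIF/+ and 3.02 (SE 0.75, adjusted p = 0.0127) in ABpIF/F mice, so that it was called in the former and not in the latter. Leaving out each mouse in turn, it was called in ABpIF/+ mice in 8 of 15 fits, with log2 fold changes of 2.66 to 3.72 and adjusted p from 0.000216 to 0.0159. The call was lost without BG3, malpa454, malpa458, malpa462, BG175, BG55 or BG88. In ABpIF/F mice it was gained without malpa387 or malpa459. Beside BG3 alone, the only Ctrl mouse with the strain label of the Braf mice, the log2 fold change was 4.87 in ABpIF/+ and 4.96 in ABpIF/F mice. BG3 ranked 2 from the lowest of the Ctrl mice for Serpina1e, and 1 mouse does not show the wide spread among Ctrl mice.

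As sums, the 5 Serpina1 genes stood at 11541 ± 1033 CPM in Ctrl, 30106 ± 6568 in ABpIF/+ and 23156 ± 4451 in ABpIF/F mice (SD, n = 6, 6 and 3). The sum rose 2.61-fold in ABpIF/+ mice (log2 1.38, SE 0.17, adjusted p = 1.38e-06). In ABpIF/F mice the log2 fold change was 1.00 (SE 0.20, adjusted p = 0.000771), right at the required fold, and without Serpina1e in the sum it was 0.68 (adjusted p = 0.0157) and not called. Leaving out 1 mouse at a time kept the ABpIF/F call in 7 of 15 fits, with log2 fold changes of 0.90 (without BG183) to 1.15 (without BG38).

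The make-up of the family differed between the groups. Serpina1e made 0.681 to 17.8% of the Serpina1 counts in Ctrl, 14.5 to 19.9% in ABpIF/+ and 23.1 to 26.6% in ABpIF/F mice. The share of Serpina1d was 21.6 ± 1.95% in Ctrl, 11.2 ± 0.853% in ABpIF/+ and 8.94 ± 0.440% in ABpIF/F mice, and that of Serpina1c was 21.7 ± 1.83%, 12.4 ± 0.777% and 13.0 ± 2.18%. Serpina1a kept a similar share of 13.0 ± 1.04%, 14.1 ± 1.10% and 12.8 ± 0.942% (SD, n = 6, 6 and 3).

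Ratios of copies within a mouse do not depend on the scaling between libraries and were tested for 16 pairs in 3 comparisons with an exact two-sided permutation test. The log2 ratio of Serpina1b to Serpina1d was 0.68 to 0.91 in Ctrl and 1.75 to 2.11 in ABpIF/+ mice, a difference of 1.19 (exact p = 0.00216, the smallest that 6 against 6 mice can give, 0.00945 after Benjamini-Hochberg adjustment over 48 tests). In ABpIF/F mice the difference from Ctrl was 1.37 (exact p = 0.0119, the smallest that 6 against 3 can give, 0.0220 adjusted). The ratio of Serpina1a to Serpina1b differed by −0.14 between ABpIF/+ and Ctrl mice (exact p = 0.0606, 0.0882 adjusted), and that of Serpina1c to Serpina1d by 0.13 (exact p = 0.132, 0.171 adjusted). Of the 10 Serpina1 pairs, 8 passed an adjusted 0.05 in ABpIF/+ against Ctrl, 6 in ABpIF/F against Ctrl and 5 between the Braf groups. All 4 ratios of a copy with methionine at P1 to a copy with tyrosine were higher in each Braf group than in Ctrl and passed, by log2 differences of 0.73 to 1.37, with the limit that a part of the reads cannot be placed on 1 copy.

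**Figure D2:**
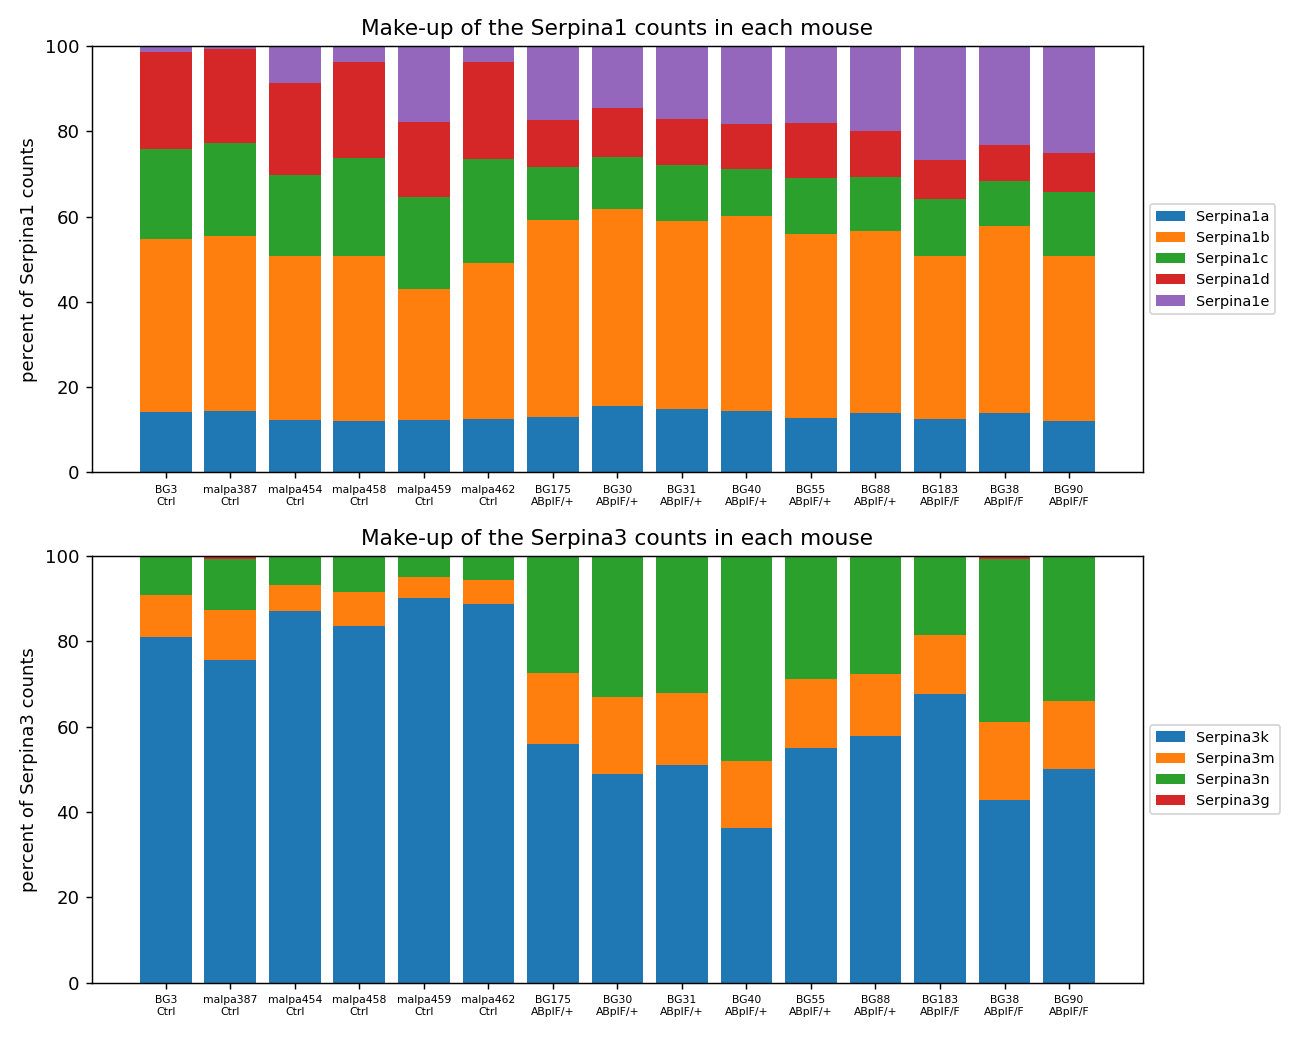
Stacked bars give the percent of the Serpina1 counts (top) and Serpina3 counts (bottom) that each member made in each of the 15 mice. Serpina1e ran from 0.681% to 17.8% in Ctrl mice and from 14.5% upwards in the Braf mice, while Serpina3k made 75.6% or more in Ctrl and 67.7% or less in the Braf mice, and Serpina3c is too small to draw.

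Among the Serpina3 members, Serpina3n rose in both Braf groups. Serpina3n inhibits granzyme B and cathepsin G and is an acute phase gene of the mouse liver. It ran from 254 to 381 CPM in Ctrl (median 337) and from 1203 to 3174 CPM in ABpIF/+ mice (median 1469), and the ABpIF/F mice had 816, 1120 and 2017 CPM. The lowest Braf mouse was 2.14-fold above the highest Ctrl mouse, the widest such distance of the 10 genes. It rose by log2 2.35 (SE 0.24, adjusted p = 2.69e-07) in ABpIF/+ and 1.98 (SE 0.27, adjusted p = 2.33e-05) in ABpIF/F mice. Its mean level ranked 384 among all genes in Ctrl, 68 in ABpIF/+ and 67 in ABpIF/F mice.

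Serpina3m, which has arginine at P1, moved the same way by less. It ran from 248 to 387 CPM in Ctrl (median 349) and from 734 to 1030 CPM in ABpIF/+ mice (median 781), and the ABpIF/F mice had 606, 532 and 957 CPM. The log2 fold change was 1.28 (SE 0.16, adjusted p = 1.49e-06) in ABpIF/+ and 1.05 (SE 0.18, adjusted p = 0.000240) in ABpIF/F mice. The latter lost its call without malpa387, BG175 or BG90, where the lowest log2 fold change was 0.76.

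Serpina3k, the kallikrein-binding protein of mouse plasma, did not rise. The Ctrl mice had 3029 (BG3), 1606 (malpa387), 4390 (malpa454), 3439 (malpa458), 7196 (malpa459) and 5913 CPM (malpa462). The ABpIF/+ mice ran from 1991 to 3236 CPM with a median of 2429, and the ABpIF/F mice had 2996, 1245 and 2989 CPM, so that both groups overlapped with the lower Ctrl mice. The log2 fold change was −0.75 (SE 0.29, adjusted p = 0.0760) in ABpIF/+ and −0.82 (SE 0.37, adjusted p = 0.164) in ABpIF/F mice, and neither passed the test. Its coefficient of variation in Ctrl, 47.6%, was higher than for 98.2% of the genes reaching 100 CPM.

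Because Serpina3k made most of the Serpina3 counts in Ctrl mice, the family sum hid the rise of Serpina3m and Serpina3n. The sum of the 5 members was 4940 ± 2107 CPM in Ctrl, 5065 ± 952 in ABpIF/+ and 4435 ± 1527 in ABpIF/F mice, with log2 fold changes of 0.04 (SE 0.25, adjusted p = 1) and −0.16 (SE 0.31, adjusted p = 1). Without Serpina3k the sum had log2 fold changes of 1.89 (adjusted p = 2.67e-07) and 1.58 (adjusted p = 3.92e-05). The share of Serpina3k ran from 75.6 to 90.3% in Ctrl, 36.3 to 57.9% in ABpIF/+ and 42.7 to 67.7% in ABpIF/F mice, and that of Serpina3n from 4.77 to 12.0%, 27.3 to 48.1% and 18.4 to 38.4%. The log2 ratio of Serpina3k to Serpina3n was 2.88 lower in ABpIF/+ than in Ctrl mice (log2 difference −2.88, exact permutation p = 0.00216, 0.00945 adjusted). In ABpIF/F mice it was lower by a log2 difference of −2.67 (exact permutation p = 0.0119, 0.0220 adjusted).

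Serpina1e and Serpina3k shared an order of mice within groups. In Ctrl both were lowest in malpa387, then BG3, then malpa458, and highest in malpa459, with malpa454 and malpa462 in between in opposite order. In ABpIF/+ mice the order from lowest to highest was BG30, BG31, BG40, BG175, BG55 and BG88 for both. After the group means were subtracted from log2 CPM, Pearson's r between these genes over 15 mice was 0.84. This is a description without a test, since both genes are read from the same libraries and the mice form groups. The same r was −0.10 to 0.22 between Serpina1e and the other Serpina1 copies, 0.89 between Serpina1a and Serpina1b, and 0.82 between Serpina3m and Serpina3n. Between groups Serpina1e and Serpina3k parted, since at a given level of Serpina3k the Braf mice had more Serpina1e than the Ctrl mice.

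**Figure D3:**
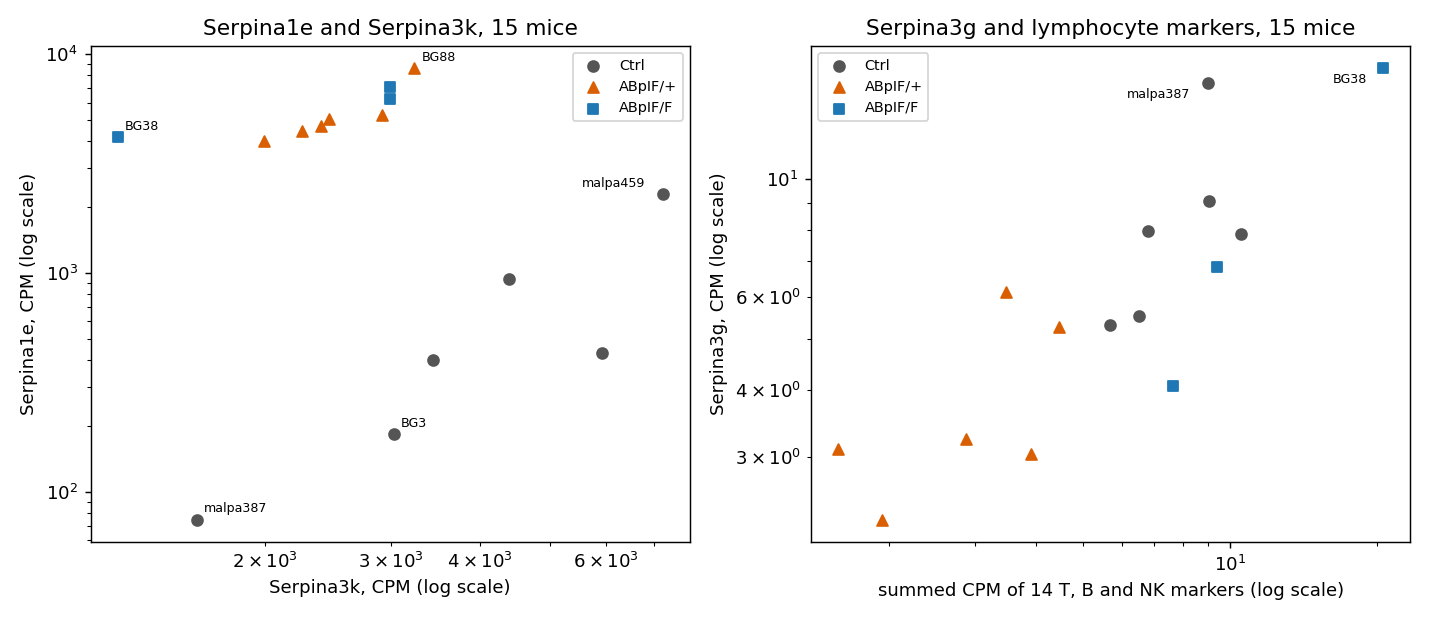
Each point is a mouse, on log scales in CPM. On the left Serpina1e is plotted against Serpina3k, where malpa387 is lowest and malpa459 highest of the Ctrl mice for both and the Braf mice lie above, and on the right Serpina3g is plotted against the summed level of 14 lymphocyte markers, where BG38 is highest for both.

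Serpina3g, an intracellular serpin known from activated lymphocytes and macrophages, was a low gene in these livers. It ran from 5.30 to 15.1 CPM in Ctrl (median 7.93) and from 2.28 to 6.12 CPM in ABpIF/+ mice (median 3.17), and the ABpIF/F mice had 6.82, 16.1 and 4.07 CPM. The log2 fold change was −1.14 (SE 0.35, adjusted p = 0.0238) in ABpIF/+ and 0.09 (SE 0.41, adjusted p = 1) in ABpIF/F mice, neither called. It was called lower in ABpIF/+ mice by DESeq2, after filterByExpr, without robust estimation, in a fit on the mice of both groups alone, and without BG38 or without BG90.

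Markers of some other cell types moved beside Serpina3g, and those of others did not. The summed level of 14 T, B and NK cell markers was 5.69 to 10.5 CPM in Ctrl, 1.57 to 4.47 in ABpIF/+ and 7.65 to 20.6 in ABpIF/F mice, with 4 of 14 called lower in ABpIF/+ mice. That of 12 macrophage markers was 441 to 613, 186 to 326 and 376 to 918 CPM, with 7 of 12 called lower in ABpIF/+ mice. Of 27 interferon response genes, 16 were called lower in ABpIF/+ and 13 higher in ABpIF/F mice. Over 15 mice Pearson's r of log2 levels with Serpina3g was 0.85 for the lymphocyte markers (0.75 within groups), 0.79 for the macrophage markers (0.57), 0.75 for stellate cell markers (0.47), 0.73 for endothelial markers (0.50) and 0.70 for the interferon genes (0.41), as a description. Of the stellate cell markers 10 of 12 were called lower in ABpIF/+ mice, and of the endothelial markers 2 of 10. Of all genes 5.35% were called lower in ABpIF/+ and 4.55% higher in ABpIF/F mice. With cholangiocyte markers r was 0.19 (0.28 within groups), with neutrophil markers 0.26 (0.41) and with hepatocyte markers −0.58 (−0.26). The part of any of these lists in the Serpina3g values was not tested.

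Serpina3c was close to absent. The Ctrl mice had 0, 2, 0, 5, 5 and 4 counts, a count of 0 allowing up to 3. The ABpIF/+ mice had 2, 5, 7, 75, 7 and 10 counts and the ABpIF/F mice 1, 3 and 2. The 75 counts, 2.90 CPM, belong to BG40, which was also the ABpIF/+ mouse with the most Serpina3n. The fitted log2 fold change in ABpIF/+ mice was 2.80 (SE 0.85, adjusted p = 0.0181) and 1.28 without BG40.

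The comparison of ABpIF/+ with ABpIF/F mice asked what the loss of the remaining Icmt copy changes under the activated Braf allele. Here 0 of 10 members were called, where 7.24% of all genes were, 1.76% higher and 5.49% lower in ABpIF/+ mice. Among genes passing filterByExpr 14.1% were called, and 0 members. At an unadjusted p under 0.05, Serpina1a, Serpina1b, Serpina1d and Serpina3c were higher and Serpina3g lower in ABpIF/+ mice, again without a counted share over all genes. DESeq2 called 1 member, Serpina3g, lower, where it called 9.01% of all genes. The log2 difference, ABpIF/+ minus ABpIF/F, was 0.52 for Serpina1a (adjusted p = 0.0652), 0.54 for Serpina1b (adjusted p = 0.0561), 0.70 for Serpina1d (SE 0.20, adjusted p = 0.0175), −0.12 for Serpina1e (SE 0.77, adjusted p = 1) and −1.23 for Serpina3g (SE 0.41, adjusted p = 0.0471). The Serpina1 sum differed by 0.38 (adjusted p = 0.251) and the Serpina3 sum by 0.19. With 3 ABpIF/F mice, missing the test does not show that the groups were alike. Per the paper, the ABpIF/F mice differed in age, kept their weight and all had liver tumors. The ABpIF/+ mice lost weight, and only a part of them had visible liver tumors. Age, body condition and tumor burden therefore cannot be told apart from the loss of Icmt, and their part was not tested.

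The make-up of the Serpina1 counts did separate these groups. The log2 ratio of Serpina1d to Serpina1e was −0.88 to −0.33 in ABpIF/+ and −1.53 to −1.45 in ABpIF/F mice, a difference of 0.84 (exact permutation test, p = 0.0119, 0.0220 adjusted). Serpina1b to Serpina1e differed by 0.66 with the same p. Of the 6 Serpina3 pairs 0 passed, with 1 unadjusted p under 0.05, that of Serpina3g to Serpina3m (exact p = 0.0476).

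**Figure D4:**
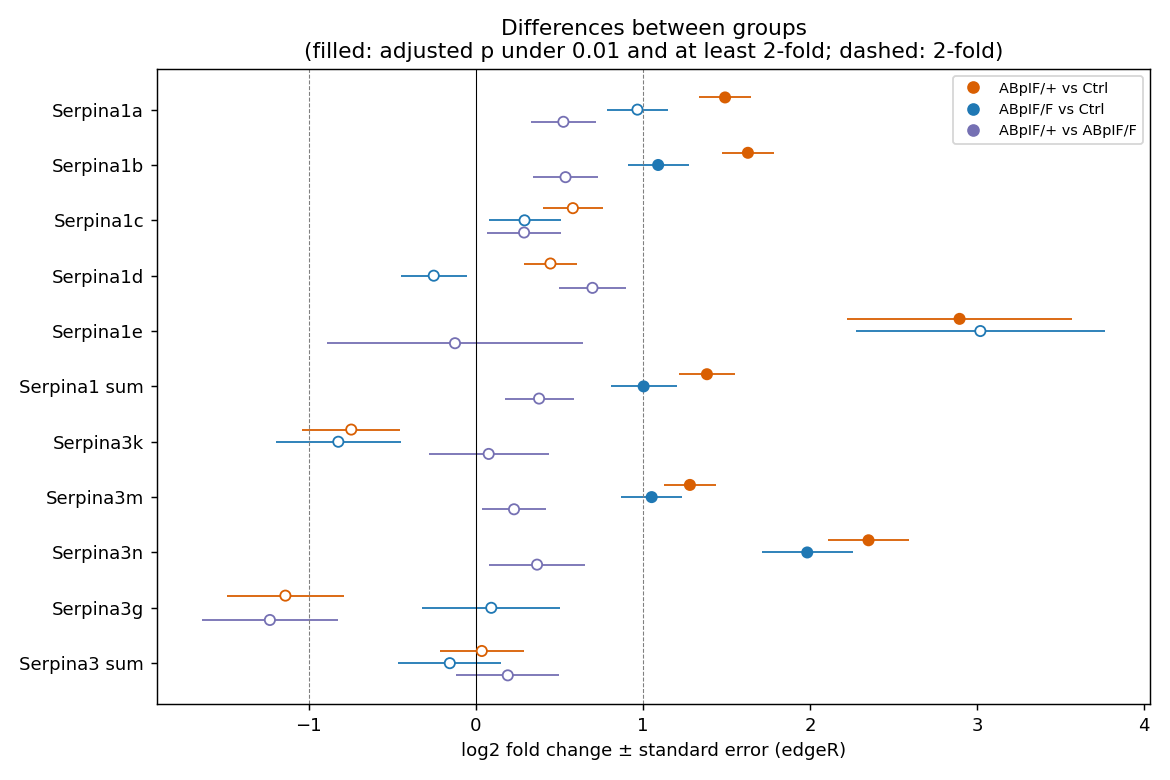
Points give the log2 fold change of each member in the 3 comparisons with bars of 1 SE, on a horizontal axis in log2 units. Serpina1e has the highest value in both comparisons with Ctrl and the widest bar of the members shown, Serpina3k and Serpina3g lie below 0 in ABpIF/+ against Ctrl, and Serpina3c is left out.

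Levels of different genes can be compared only per length. Per kb of annotated exon, Ctrl livers held 2072 ± 987 CPM of Serpina3k, 1842 ± 211 of Serpina1c, 1795 ± 188 of Serpina1b and 1780 ± 173 of Serpina1d, which do not differ beyond their spread. Serpina1a followed with 820 ± 109 CPM per kb, Serpina1e with 444 ± 510, Serpina3m with 196 ± 30.6 and Serpina3n with 161 ± 20.9. The last pair was again within their spread, and the wide spread of Serpina1e covered its neighbours. In ABpIF/+ livers Serpina1b came first with 5549 ± 1065. Serpina1e with 3307 ± 1020, Serpina1c with 2756 ± 653, Serpina1d with 2426 ± 522 and Serpina1a with 2305 ± 499 did not differ beyond their spread. Below them were Serpina3k with 1236 ± 221, Serpina3n with 823 ± 355 and Serpina3m with 476 ± 65.7, where neighbours overlapped in their spread. In ABpIF/F livers Serpina1b (3824 ± 476) and Serpina1e (3605 ± 918) came first and did not differ beyond their spread. Serpina1c (2255 ± 722), Serpina1a (1603 ± 223), Serpina1d (1495 ± 352) and Serpina3k (1172 ± 490) followed, where neighbours also overlapped in their spread. Serpina3g and Serpina3c were last in every group. Lengths were those of GENCODE M21, which may not be the annotation used for counting. They were not corrected for stretches shared between copies, which leaves the order of the Serpina1 copies uncertain.

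Related genes did not all follow. Of 16 other clade A serpins, 1 was called higher and 3 lower in ABpIF/+, and 2 higher and 2 lower in ABpIF/F mice. Of all genes 10.0 and 6.93% were called in these comparisons, and 19.2 and 13.1% of genes passing filterByExpr. Serpina12, the adipokine vaspin, rose in both (log2 fold change 2.63, adjusted p = 8.30e-05, and 2.31, adjusted p = 0.00108). Serpina6, the carrier of corticosteroids in plasma, stood at 588 ± 120 CPM in Ctrl, 1152 ± 697 in ABpIF/+ and 74.6 ± 65.8 in ABpIF/F mice and fell in the latter (log2 −2.98, adjusted p = 0.00283). Serpina7, the carrier of thyroid hormone, rose in ABpIF/F mice (log2 2.11, adjusted p = 0.00412) and had a log2 fold change of 1.49 (adjusted p = 0.0101) in ABpIF/+ mice. Serpina10, the inhibitor of coagulation factor X with protein Z, had log2 fold changes of −0.25 and 0.14, neither called.

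Of 21 other protease inhibitors that the liver secretes, 5 were called higher and 1 lower in ABpIF/+, and 8 higher and 0 lower in ABpIF/F mice. Beside this list and the acute phase list below, 10.0 and 6.93% of all genes were called. Among genes passing filterByExpr the shares were 19.2 and 13.1%. Serpinf2, the inhibitor of plasmin, rose by log2 1.43 (adjusted p = 4.89e-08) and 1.36 (adjusted p = 2.16e-06), and the kininogen gene Kng1 by log2 1.38 (adjusted p = 1.10e-07) and 1.04 (adjusted p = 7.98e-05). Of 24 acute phase genes, 8 were called higher and 1 lower in ABpIF/+ and 10 higher and 0 lower in ABpIF/F mice. Those called higher included Lcn2 (log2 5.68 and 6.23), Apcs (2.21 and 2.53) and the haptoglobin gene Hp (2.08 and 1.99). The list did not move as a whole. In ABpIF/+ mice other than BG40, Orm1 ran from 67.4 to 289 CPM, against 546 to 838 in Ctrl, and 863 in BG40. Saa1 ran from 2.05 to 19.2 CPM in the same mice, against 20.0 to 33.4 in Ctrl, and 202 in BG40.

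Of 20 proteases that these serpins or their relatives can trap, 3 were called higher in ABpIF/+ and 5 in ABpIF/F mice. Of all genes 4.69 and 4.55% were called higher. Prtn3, proteinase 3 of neutrophils, stood at 0.301 ± 0.240 CPM in Ctrl, 8.35 ± 7.26 in ABpIF/+ and 23.1 ± 27.1 in ABpIF/F mice. The neutrophil elastase gene Elane was called higher in both Braf groups (adjusted p = 0.000815 and 0.000201) at low levels, with means of 0.0124 ± 0.0304, 0.362 ± 0.231 and 0.799 ± 0.680 CPM. Summed neutrophil markers were 2.58 to 4.57 CPM in Ctrl, 3.23 to 12.3 in ABpIF/+ and 5.42 to 109 in ABpIF/F mice, and their part in the protease values was not tested. Ctsl, cathepsin L, rose in ABpIF/+ mice (log2 1.12, adjusted p = 1.50e-06) and had a log2 fold change of 0.04 in ABpIF/F mice.

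Of 28 transcription factors and receptors upstream of liver serpins, 4 were called higher and 2 lower in ABpIF/+, and 2 higher and 1 lower in ABpIF/F mice. Of all genes 10.0 and 6.93% were called, and 19.2 and 13.1% of genes passing filterByExpr. The counts of this list are near the latter shares and do not set it apart. Socs3, a feedback inhibitor induced by STAT3, rose in ABpIF/+ mice (log2 2.31, adjusted p = 0.00301), as did Cebpd, a factor of the acute phase (log2 1.68, adjusted p = 0.000298). Ghr, the growth hormone receptor, fell in both groups (2.83-fold and 3.70-fold lower).

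Of 12307 other genes averaging 1 CPM or more, those most like each pattern were taken by Pearson's r of log2 CPM over the 15 mice. For the Serpina1 sum these were Apom (r = 0.98, 0.82 within groups), Apoa1, Pla1a, Smoc2 and B4galnt1. For Serpina3n they were Hp (r = 0.97, 0.80 within groups), Trf, Timeless, Fndc3b and Kng2. For Serpina3k they were C8b, a complement gene (r = 0.94, 0.98 within groups), Ganab, Pde8a, Gspt1 and Dgcr2. For Serpina3g they were Cmtm3 (r = 0.90, 0.83 within groups), Zfta, Tmcc2, Lhfpl6 and Gucy1a1.

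The strain label, meaning the letters that open the mouse name, and the genotype were not separate in these mice. BG3, the Ctrl mouse with the strain label of the Braf mice, had the most Serpina1a (1827 against 1295 to 1572 CPM), Serpina1b (5187 against 3973 to 4499 CPM) and Serpina1d (2922 against 2281 to 2580 CPM) of the 6 Ctrl mice, and lay within the others' range for the other members. With BG3 as the lone Ctrl mouse, the log2 fold changes in ABpIF/+ mice were 1.21 for Serpina1a, 1.37 for Serpina1b, 4.87 for Serpina1e, 1.12 for Serpina3m and 2.36 for Serpina3n. No calls are given for this fit, since it must assume that Ctrl mice vary like the Braf groups. The strain label and the Braf allele cannot be told apart in the other 5 Ctrl mice.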

How the data were processed

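Per the study's methods, liver RNA was isolated with Trizol, poly(A) libraries were made with a stranded kit and sequenced as read pairs, and reads were trimmed, aligned to mm10 with HISAT2 and counted with featureCounts 2.0.8. The authors deposited raw counts per gene, 1 column per mouse. The gene annotation and the strand setting of the counting are not given in the sources used here. GEO lists 23 samples for these 15 mice, and a second table repeats 10 of the mapped columns with identical values. In it 5 count columns headed only by numbers, and the columns of the authors' own edgeR comparison (fold changes and p-values), were not used.

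Counts were tested with the quasi-likelihood F-test of edgeR 4.0.16 (R 4.3.3, form of earlier releases, TMM, robust dispersions), with all 27179 genes kept and all 15 mice in a single fit. A call needed a Benjamini-Hochberg adjusted p under 0.01 and a fold change of at least 2. SE is the absolute log2 fold change divided by the square root of F. Family sums replaced the 10 members in a table of 27171 rows. Copy ratios are log2 ratios of raw counts in a mouse. DESeq2 1.42.0 was an alternative. No intervals were computed, and error is the spread between mice. Sequences were read with Biopython 1.88 from GENCODE M21.

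The members were taken by symbol, but this family and the gene lists were chosen with earlier results of these data known. All 10 members were named. Of each list at most 4 called genes per comparison were to be named, those with the largest change among genes reaching 5 CPM in a group, beside Serpina6, Serpina7 and Serpina10, and the 5 genes most like each pattern. Elane, Orm1, Saa1 and the values of genes short of a call were added after their values were seen. Some members of the lists and the search of promoters are not reported here.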

Additional observations from a re-analysis of the deposited data

Results flagged for a closer look

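In a group of 6 mice, the highest or lowest mouse was picked out by its distance to the nearest mouse in CPM. As a part of the group's range, this distance had to be above Dixon's critical value. Chance does this in about 1 of 20 groups of normally distributed values, and CPM were not checked for that. Of 24 groups tested, 7 were picked out, and all were high ABpIF/+ mice. The groups include copies and their sums, so this count cannot be set against that rate. BG88 had the most Serpina1a (6032 CPM, next 4310), Serpina1b (18435, next 13434), Serpina1c (5442, next 3810), Serpina1e (8591, next 5268) and Serpina1 sum (43177, next 29099). These are not separate observations, since the copies share reads and the sum holds them. BG88 also had the lowest TMM factor of all mice (0.846), which raises its CPM. The rule was not run without this scaling. BG40 had the most Serpina3n (3174 CPM, next 1538) and Serpina3c (2.90 CPM, next 0.368). Without BG88 the Serpina1 sum had a log2 fold change of 1.25 against Ctrl, and without BG40 Serpina3n had 2.08.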

How the results depend on the processing

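No paired analysis was possible because the columns carry mouse names and no replicate numbers. The second count table was not run as an alternative, since its shared columns are identical. Sums without Serpina1e or Serpina3k were chosen after seeing the data. Library sizes alone put the median of genes of at least 1 CPM at −0.16, 0.01 and −0.15 in the 3 comparisons, against 0.02, −0.00 and 0.04 with TMM.

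The Serpina1 sum in ABpIF/F against Ctrl had a log2 fold change of 0.99 (library sizes alone), 0.96 (genes passing filterByExpr), 0.99 (only the mice of both groups), 0.99 (clock score) and 0.68 (without Serpina1e), each no longer called. With only the BG strain label, which leaves 1 Ctrl mouse, it was 0.82, and 1.23 in ABpIF/+ against Ctrl. The Serpina3 sum was −0.15 in ABpIF/+ against Ctrl with library sizes alone and 1.89 without Serpina3k, which was called. In ABpIF/F against Ctrl it was 0.21 (BG strain label), 0.81 (clock score) and 1.58 (without Serpina3k), and between the Braf groups −0.77 (clock score).

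Members called numbered 9, 5 and 2 in the 3 comparisons at an adjusted p under 0.05 at any fold change. Of all genes 25.5, 17.1 and 18.2% were called there, so that the last count is near that share. With a log2 difference of 2 or more required they numbered 2 and 0 in the comparisons with Ctrl, against 4.03 and 3.15% of all genes. The clock score left 0 in ABpIF/F against Ctrl (2.59% of all genes) and 0 between the Braf groups (1.53%). DESeq2 called 1 between the Braf groups, against 9.01% of all genes. Leaving out each mouse in turn gave 4 to 6, 2 to 4 and 0 to 0 members called, Serpina1 sums of 1.25 to 1.42, 0.90 to 1.15 and 0.23 to 0.49, and Serpina3 sums of −0.12 to 0.23, −0.43 to 0.073 and −0.037 to 0.47.

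Of 717 values for single members, 668 kept their direction and side of the threshold and 11 turned. Serpina3k between the Braf groups turned to −0.061 (library sizes alone), −1.05 (clock score) and −0.23 (without BG38, up to 0.26 without BG183), and in ABpIF/F against Ctrl to 0.32 (clock score). Serpina3g in ABpIF/F against Ctrl turned to −0.52 (clock score), −0.01 without malpa454, −0.01 without malpa458 and −0.64 without BG38 (up to 0.44 without BG90). Serpina3c there turned to 3.91 (BG strain label) and 0.42 (clock score), and Serpina1e between the Braf groups to 0.038 without BG183 (range −0.31 to 0.038). None of these was called before or after. Where no value above shows it, the cause was not tested. Depth limits Serpina3c, at 0 to 75 counts per mouse.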

Other observations

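Serpina4-ps1, a pseudogene of the same clade that was named after its values were seen, followed the order of Serpina3k in the 6 Ctrl mice without exception. It stood at 1.86 (malpa387), 11.4 (BG3), 20.1 (malpa458), 34.8 (malpa454), 140 (malpa462) and 361 CPM (malpa459). In all 9 Braf mice it was at or under 0.653 CPM, and its log2 fold change was −11.19 (edgeR quasi-likelihood test, adjusted p = 0.000290) in ABpIF/+ and −7.94 (adjusted p = 0.00849) in ABpIF/F mice. Serpina1e, which follows nearly the same order in Ctrl mice, was higher in the Braf mice, and Serpina3k did not differ by the test.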
